A study of Mus musculus with 3 samples.

Results

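The genes described here are *Smarca1*, which encodes the ISWI ATPase SNF2L, its close relative *Smarca5*, which encodes SNF2H, and 4 genes of the subunits that join them in remodeling complexes, *Bptf*, *Baz1a*, *Baz1b* and *Cecr2*. All 6 were found by symbol among the 24958 genes of a single-cell RNA-seq table of mouse ovary with 31776 cells. *Smarca1* was selected on its measured level in granulosa cells (GCs), which is high in cells of only 1 of the 3 barcode endings of the table, so that pattern is given as a description and supports nothing. The other 5 genes were chosen as partners of the ISWI ATPases. By the labels there are 3 droplet libraries of whole ovary, timed at 0, 1 and 6 h of human chorionic gonadotropin (hCG, a ligand of the luteinizing hormone receptor). The study describes the ovaries of its single-cell data as from 21-day-old Kunming mice that had received pregnant mare serum gonadotropin. It names no hCG for them, so how the hCG times of the labels relate to that injection is not stated. Each time point has 1 library, and the number of animals in it is not given in the sources used here. Cell barcodes end in 1, 2 or 3 and no source ties an ending to a library, so the endings have no time point below. No test was run, because cells of a library are not replicates. Intervals are at 95% and cover counting error only.

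ISWI remodelers use ATP to slide nucleosomes along DNA and to space them evenly. SNF2L works with BPTF, a reader of methylated histone H3, in the NURF complex and with CECR2 in the CERF complex. SNF2H works with BAZ1A in ACF and CHRAC and with BAZ1B in WICH, complexes linked to nucleosome spacing and to chromatin behind replication forks. In the ovary SNF2L has been studied in GCs that turn into luteal cells, with *Star*, the gene of the protein that carries cholesterol into mitochondria, and *Fgl2*, a gene of the fibrinogen family, among the genes tied to it.

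In GENCODE M21 on GRCm38, *Smarca1* lies on the minus strand of chromosome X, from 47809368 to 47892974. *Smarca5* lies on the minus strand of chromosome 8, from 80698507 to 80739497. *Bptf* spans 107033081 to 107132127 of chromosome 11 and *Baz1a* 54892989 to 55014348 of chromosome 12, both on the minus strand. *Baz1b* spans 135187264 to 135246129 of chromosome 5 and *Cecr2* 120666369 to 120771190 of chromosome 6, both on the plus strand. *Baz1a* has the small genes Gm24296 and Gm27014 on its other strand. No other annotated gene overlaps the last 500 bases of any of the 6 genes, where 3′ reads fall. The coding transcripts of *Smarca1* and *Smarca5* share 0 of the 6086 runs of 31 bases in *Smarca1*, so reads of the pair can be told apart. The 250 bases before the RefSeq start of *Smarca1* are shown because the results below turn on this gene. They lie on the minus strand at chrX:47892614-47892863 of GRCm38.p6, overlap 0 GENCODE exons and fall in an intron of 2 longer GENCODE transcripts. Capitals mark a CCAAT box and a GC box (GGGCGG).
*Smarca1*: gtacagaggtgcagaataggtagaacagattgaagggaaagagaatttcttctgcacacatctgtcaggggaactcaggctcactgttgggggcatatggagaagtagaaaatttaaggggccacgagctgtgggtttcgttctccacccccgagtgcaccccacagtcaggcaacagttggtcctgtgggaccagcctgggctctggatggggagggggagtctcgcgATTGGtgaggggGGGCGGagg
The CCAAT box, here on the other strand, is 17 to 21 bases before the start and the GC box 4 to 9 bases before it. Both are common, with CCAAT in 33.8% and GGGCGG in 32.7% of all 32851 RefSeq windows of this length, on either strand. The window holds 0 copies of the cAMP response element TGACGTCA, which 1.55% of windows hold, of its TGACG core (17.8%), of the NR5A site AAGGTCA (4.08%) and of the AP-1 site TGANTCA (6.75%). These letters are a description of the window only.

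Cells were clustered within each barcode ending, with the 6 genes left out, and the clusters were named from fixed marker genes. A level below is the average, over the cells of a group, of UMIs per 10000 (a UMI is 1 counted RNA molecule). Granulosa-like cells numbered 4181, 2919 and 5190 in endings 1, 2 and 3. Theca-like cells numbered 1313, 510 and 665, stroma-like cells 3006, 2620 and 2290, smooth muscle-like cells 380, 621 and 821, and luteal-like cells 387, 170 and 70. Endothelial-like cells (463 to 687 an ending) and myeloid-like cells (108 to 154) were fewer, 20 epithelial-like cells of ending 2 were too few to be compared, and 543, 2227 and 1822 cells stayed unnamed. Depth was close between endings, with medians of 6093, 6352 and 6524 UMIs a cell. The median share of mitochondrial UMIs was lowest in ending 3, at 2.93% against 3.95% and 4.42%. The endings share 27 to 46 barcodes in pairs. In granulosa-like cells of every ending the summed level of 8 myeloid markers was below 0.1, that of 8 endothelial markers was at most 0.355 and that of 8 oocyte markers at most 0.0646. The summed level of the 12 GC markers was lower in ending 3, at 58.0 against 158 and 135, and that of 4 luteal markers higher, at 12.2 against 4.08 and 2.42. The part of these differences in the results below was not tested.

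*Smarca1* in granulosa-like cells was at 1.59 UMIs per 10000 in ending 1 (interval 1.54 to 1.64), 0.993 in ending 2 (0.95 to 1.04) and 6.39 in ending 3 (6.30 to 6.48). The level in ending 3 was thus 4.02 times that in ending 1 (3.89 to 4.17) and 6.43 times that in ending 2 (6.14 to 6.74), and the level in ending 2 was below that in ending 1. Among the genes at 0.5 UMIs per 10000 or more in either ending, after 0.1 was added to each level, 14.6% were higher by 1.5-fold or more in ending 3 than in ending 1, and 2.48% had a fold as large as that of *Smarca1* (3.84). Against ending 2, 25.6% of genes were higher in ending 3 and 0.734% had a fold as large as its 5.94. From ending 1 to ending 2, 18.2% of genes were lower by this measure, *Smarca1* among them with a fold of 0.648, and 9.88% were higher. These ranks restate how the gene was picked.

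Theca-like cells had the highest *Smarca1* level of the 7 classes of 50 or more cells in every ending, with 4.55, 3.22 and 8.25 in endings 1, 2 and 3. With the endings clustered together the highest class was smooth muscle-like in ending 2 and granulosa-like in ending 3, and under a gate on the markers of single cells it was luteal-like in ending 3. The order below them changed. In ending 1 luteal-like cells came next at 4.0 (3.74 to 4.28), then smooth muscle-like cells at 2.43, stroma-like cells at 1.67 and granulosa-like cells at 1.59, the last pair with overlapping intervals. In ending 2 smooth muscle-like cells at 2.41 and luteal-like cells at 2.18 overlapped, and stroma-like cells at 1.20 stood above granulosa-like cells at 0.993. In ending 3 granulosa-like cells took the second place at 6.39, ahead of luteal-like cells at 2.58, smooth muscle-like cells at 1.47 and stroma-like cells at 0.596. Myeloid-like cells (0.218 to 0.528) and endothelial-like cells (0.121 to 0.334) were lowest throughout. In ending 3 the intervals of stroma-like cells (0.556 to 0.639) and myeloid-like cells (0.383 to 0.710) overlapped.

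The classes did not move alike between endings. From ending 1 to ending 3 *Smarca1* was 1.81 times as high in theca-like cells. This class holds 2 clusters in ending 1, at 4.02 (847 cells, led by *Cyp17a1*) and 5.53 (466 cells, led by *Mgat4c*), and 1 cluster led by *Cyp17a1* in each other ending, at 3.22 and 8.25. In these cells the summed level of 5 theca markers was 75.8, 69.2 and 33.9 in endings 1, 2 and 3 and that of 4 luteal markers 9.57, 9.48 and 22.9, and their part in the ratio was not tested. In stroma-like cells it was 0.358 times as high, at 1.67, 1.20 and 0.596 in endings 1, 2 and 3. The class holds different clusters in each ending. Clusters with *Lamc3*, *Thbd*, *Col15a1* and *Enpep* among their leading genes are part of it in endings 1 and 2, at 1.73 and 1.52, while the one of ending 3 (1342 cells, at 0.859) stayed unnamed. With that cluster counted as stroma-like, a choice made after seeing the values, the ratio was 0.416 (0.390 to 0.444). In smooth muscle-like cells the ratio was 0.605 (0.531 to 0.691). In luteal-like cells it was 0.643, with only 70 cells in ending 3. In the classes of lowest level it was 2.08 (1.27 to 3.35) for endothelial-like and 1.74 (1.03 to 2.99) for myeloid-like cells. Over all cells the level was 2.0, 1.27 and 3.81.

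**Figure D1:**
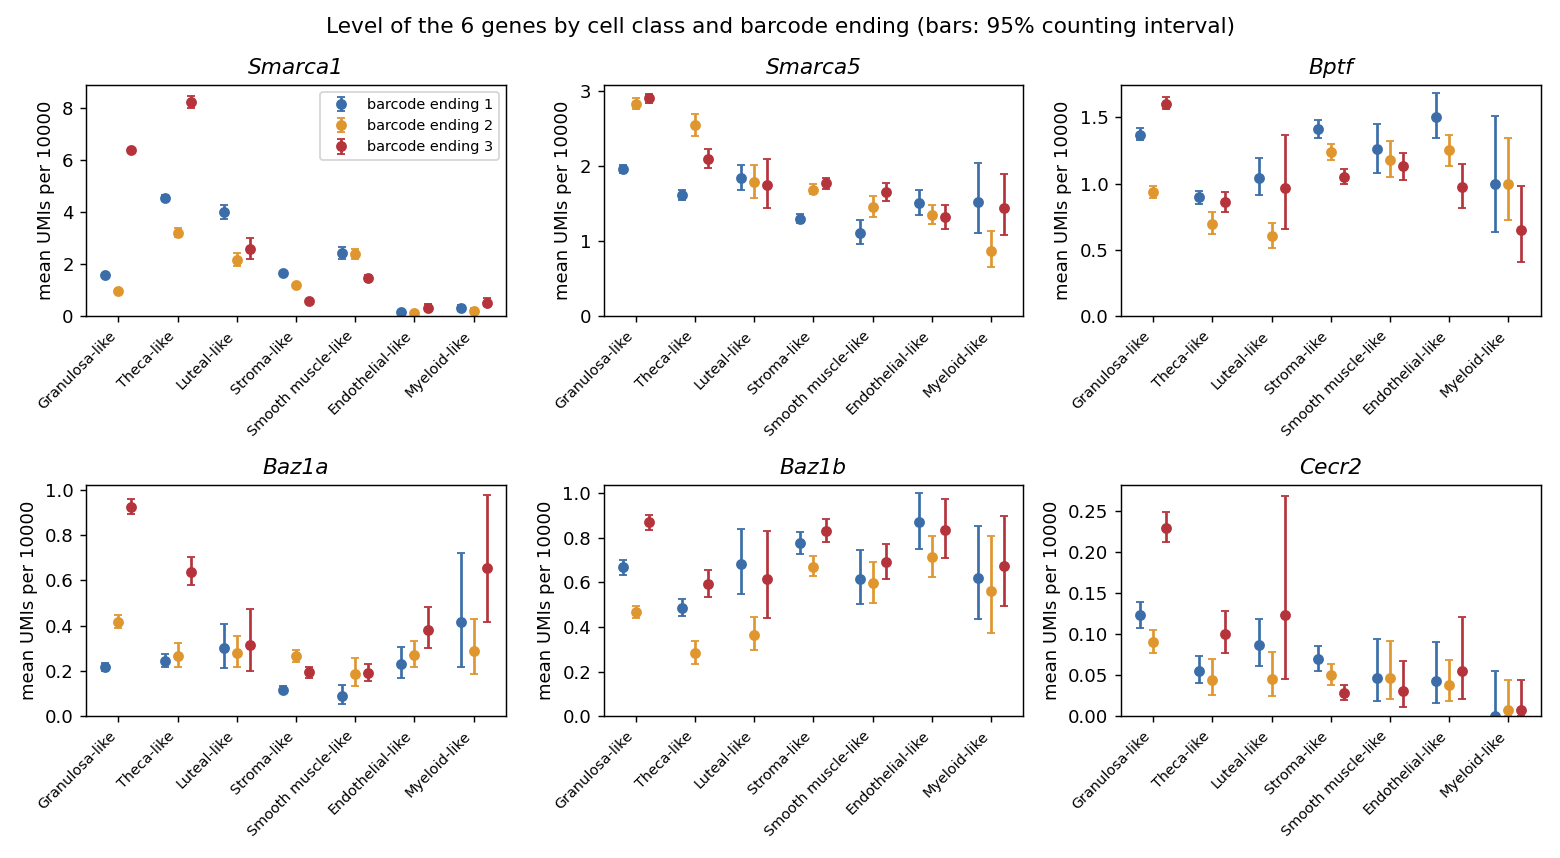
Level of the 6 genes, in mean UMIs per 10000 with the 95% counting interval, in 7 cell classes and 3 barcode endings. *Smarca1* is highest in theca-like cells in each ending and reaches 6.39 in granulosa-like cells of ending 3, while *Smarca5* lies between 0.872 and 2.91 in every class.

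The granulosa-like class was not uniform. In ending 3 its 9 clusters ranged from 0.992 to 11.5 for *Smarca1*, against 0.452 to 2.80 over 7 clusters of ending 1 and 0.584 to 2.72 over 7 clusters of ending 2. The highest was cluster 1 of ending 3, of 2047 cells, led by *Npy*, *Lyve1* and *Rnf180*. It held 39.4% of the granulosa-like cells of that ending and 63.9% of their *Smarca1* UMIs. Its naming rested on 5 of the 12 GC markers, none of them among its 10 leading genes. The highest of the 12 GC markers there were *Inha*, the inhibin alpha subunit gene, at 47.4, *Serpine2* at 14.2 and *Fst* at 4.27. *Nr5a2* was at 1.65, *Inhba* at 1.48 and the other GC markers between 0.0132 (*Gatm*) and 0.483 (*Fshr*). Of the luteal markers, *Sfrp4* was at 16.9, *Prlr* at 7.90, *Akr1c18* at 0.347 and *Ptgfr* at 0.162. Of the 5 theca markers, *Mgarp* was at 8.28 and the others between 0.00122 (*Insl3*) and 0.439 (*Aldh1a1*). Next came a mitotic cluster of 552 cells led by *Ube2c*, *Prc1* and *Ccnb1* at 7.26 (7.03 to 7.48), and a cluster of 281 cells led by *Ptx3*, *Grem1* and *Nupr1* at 6.11. The other 6 granulosa-like clusters of ending 3 lay at 2.58 or below, within the span of the granulosa-like clusters of the other endings.

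The class result leaned on the first of these clusters. Without it, and with all clusters of ending 1 kept, *Smarca1* in granulosa-like cells of ending 3 was 1.92 times that of ending 1. The cluster left out is the one of highest level, so a lower ratio had to follow. Without all 3, a choice made after seeing the values, the ratio was 1.05. Clustering the endings together put 98.2% of the cells of cluster 1 of ending 3 in an unnamed cluster, and the ratio was then 1.98, with granulosa-like cells of ending 3 below the other cells of that ending, at 0.787 times their level. A gate on the markers of single cells, which called 26.1% of these cells granulosa-like and 44.5% luteal-like, gave 2.39. The clusters set beside cluster 1 of ending 3 were those of ending 1 and ending 2 that also have *Comp*, a matrix protein gene, among their leading genes. Cluster 2 of ending 1 (1122 cells) had *Smarca1* at 2.80 (2.67 to 2.93). Cluster 2 of ending 2 (1180 cells, left unnamed because a luteal marker was among its leading genes) was at 1.52 (1.43 to 1.62). Cluster 1 of ending 3 was 4.12 times the former and 7.56 times the latter. Their markers differed too, with *Comp* at 8.93, 4.13 and 1.72 in these clusters of endings 1, 2 and 3. *Inha* was at 101, 98.4 and 47.4, *Inhba* at 68.4, 65.8 and 1.48 and *Sfrp4* at 0.131, 3.30 and 16.9. The part of these differences in the ratios was not tested.

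**Figure D2:**
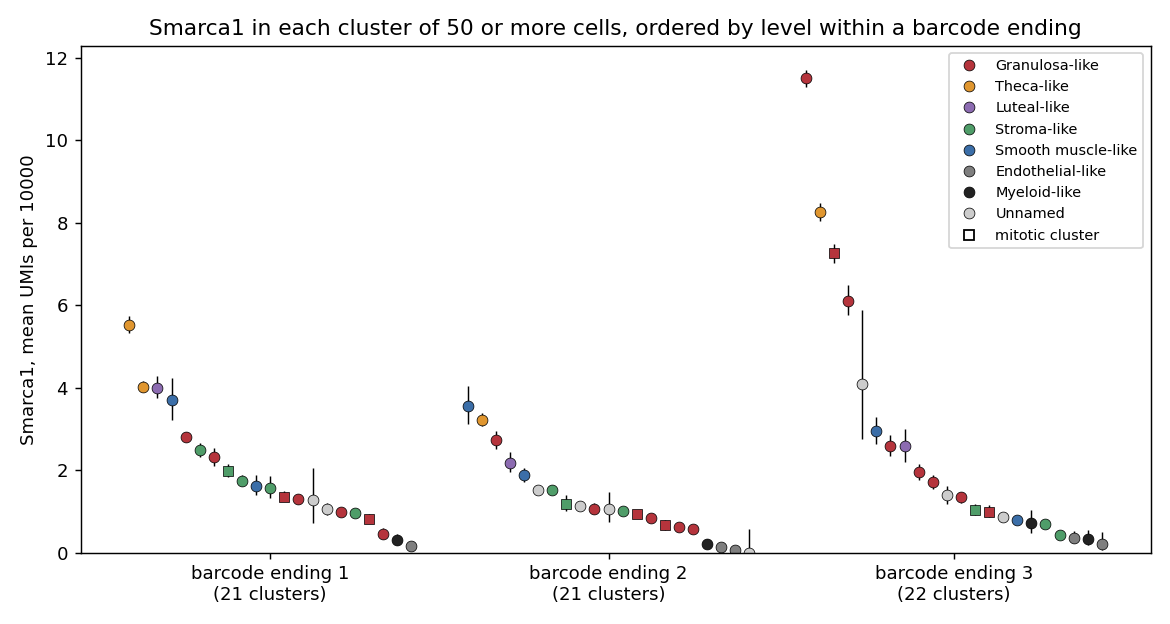
*Smarca1* level in mean UMIs per 10000, with the 95% counting interval, for each cluster of 50 or more cells, ordered within a barcode ending and coloured by class, with squares for mitotic clusters. The 3 high granulosa-like clusters of ending 3, at 11.5, 7.26 and 6.11, stand above the remaining granulosa-like clusters, which end at 2.80.

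Clusters of the preantral type, led by *Kctd14*, *Gatm* or *Amh*, an anti-Müllerian hormone gene of small follicles, showed no such gap. *Smarca1* was at 2.31 in cluster 13 of ending 1, 2.72 in cluster 14 of ending 2 and 2.58 in cluster 15 of ending 3, and the ratio of the last to the first was 1.12 (0.973 to 1.29). Cluster 6 of ending 3, also led by *Kctd14*, was lower at 1.34, 0.581 times cluster 13 of ending 1 (0.505 to 0.668). It also shares the leading genes *Slc18a2*, *Dynap* and *Plxna2* with cluster 15 of ending 1 and cluster 7 of ending 2. Those were at 0.452 and 0.584, below cluster 6, so its direction depends on the cluster it is set beside. Among mitotic clusters, cluster 9 of ending 3 was 5.32 times cluster 10 of ending 1 and 7.78 times cluster 11 of ending 2. Another mitotic granulosa-like cluster of ending 3, with histone genes among its leading genes, was at 0.992. Within smooth muscle-like cells, the cluster led by *Rgs5*, a pericyte marker, was at 3.71, 3.55 and 2.94 in endings 1, 2 and 3, and the contractile cluster led by *Actg2* at 1.62, 1.87 and 0.783.

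Single cells showed the same spread after each was thinned to 3000 UMIs, which left out 210, 69 and 277 shallower granulosa-like cells. At least 1 *Smarca1* UMI was found in 33.7% of those of ending 1, 23.1% of ending 2 and 63.1% of ending 3. Without thinning the shares were 53.9%, 43.3% and 76.6%. At least 5 UMIs were found in 0.277%, 0.175% and 14.1%. In ending 3, 36.9% of the thinned cells had none. In endothelial-like cells, the class of lowest level, 4.63%, 2.53% and 5.56% of thinned cells had a UMI (median depths of 5329, 5400 and 4789 UMIs against 5970, 7297 and 6509.5 in granulosa-like cells), so the granulosa-like shares were well above that background.

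**Figure D3:**
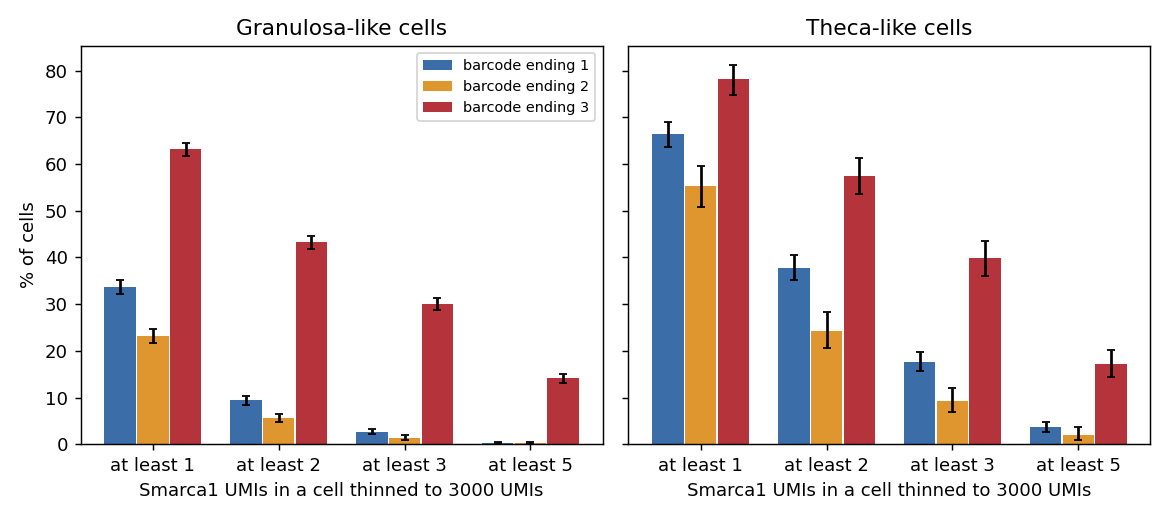
Share of cells, in percent with the exact 95% interval, with at least 1, 2, 3 or 5 *Smarca1* UMIs after thinning to 3000 UMIs, in granulosa-like and theca-like cells of the 3 barcode endings. At 5 or more UMIs the granulosa-like cells of ending 3 stand at 14.1%, against 0.277% and 0.175%, and the theca-like cells at 17.1%, against 3.61% and 2.01%.

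*Smarca5*, the other ATPase gene, was spread far more evenly. In granulosa-like cells it was at 1.97 in ending 1, 2.83 in ending 2 and 2.91 in ending 3, and the levels in endings 3 and 2 could not be told apart (ratio 1.03, 0.992 to 1.06). Of the named classes, granulosa-like cells had its highest level in each ending, though in ending 1 the interval overlapped that of luteal-like cells at 1.84, which were highest there as a mean of log values and after thinning. Under the gate on single cells the highest class was another in endings 1 and 3. Unnamed cells were at 2.17 in ending 1 and 2.86 in ending 2. The lowest class level was 0.872, in myeloid-like cells of ending 2. Between endings 3 and 1 its fold of 1.45 stayed short of 1.5.

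The share of *Smarca1* among the UMIs of both ATPase genes puts the pair on 1 scale. It compares cells, not molecules of one protein with the other, since capture of the 3′ ends may differ between genes. The share in granulosa-like cells was 43.0% in ending 1 (42.1 to 43.9), 25.7% in ending 2 and 67.4% in ending 3 (66.9 to 67.9). In theca-like cells it was 73.6%, 57.1% and 79.8%, above 50% in every ending. In stroma-like cells it was 55.4%, 40.5% and 27.4%, lowest in the ending where granulosa-like cells had their highest share. Endothelial-like cells were at 7.83 to 17.9%. In the clusters with *Comp* among their leading genes the share was 58.0%, 32.4% and 77.5% in endings 1, 2 and 3.

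**Figure D4:**
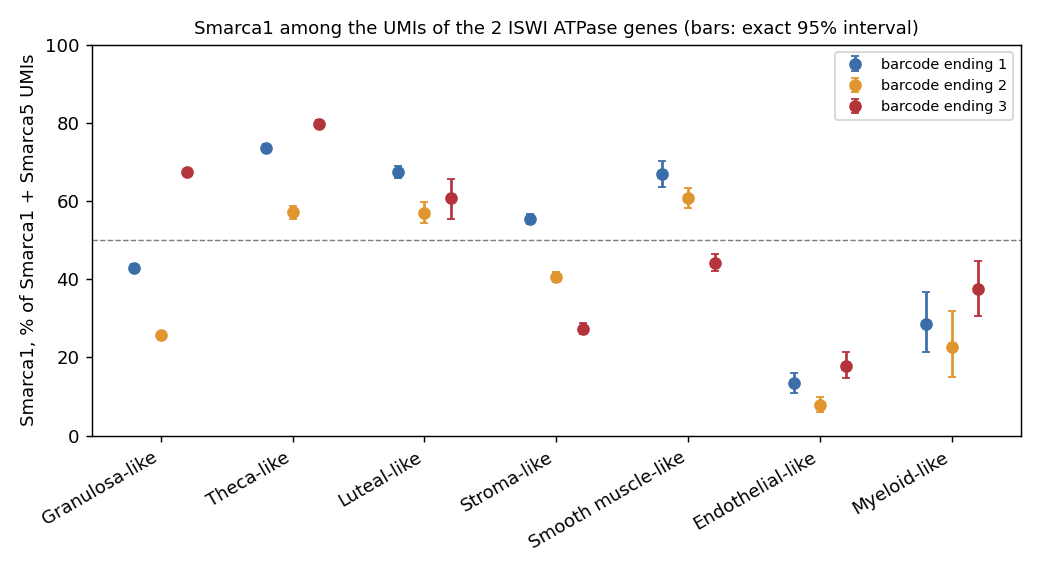
*Smarca1* UMIs in percent of the UMIs of *Smarca1* and *Smarca5* together, with the exact 95% interval, by cell class and barcode ending, with a dashed line at 50%. Granulosa-like cells go from 25.7% in ending 2 to 67.4% in ending 3, and stroma-like cells are lowest in ending 3 at 27.4%.

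Of the subunits that work with SNF2L, *Bptf* in granulosa-like cells was at 1.37, 0.935 and 1.60 in endings 1, 2 and 3, a ratio of 1.17 between endings 3 and 1 and of 1.71 between endings 3 and 2. Without cluster 1 of ending 3 the former was 0.957. In cluster 1 of ending 3 it was at 2.04, 2.99 times cluster 2 of ending 2 and 1.46 times cluster 2 of ending 1. Endothelial-like cells had the highest point value in endings 1 and 2, at 1.5 and 1.25, with intervals that overlapped those of stroma-like cells at 1.41 and 1.24. Theca-like cells, highest for *Smarca1*, were low for *Bptf*, at 0.896, 0.698 and 0.860.

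*Cecr2* was the scarcest of the 6 genes by UMIs. It was at 0.123, 0.0901 and 0.230 in granulosa-like cells of endings 1, 2 and 3, from 376, 212 and 874 UMIs. The granulosa-like level was the highest point value of the 7 classes in each ending and was 1.75, 1.5 and 5.45 times that of all other cells. Under the gate on single cells the highest class was epithelial-like in endings 1 and 2 and luteal-like in ending 3. Unnamed cells were at 0.149 in ending 1 and 0.0909 in ending 2, with intervals that overlapped those of granulosa-like cells. In the 3 endings 8.18%, 6.44% and 14.1% of granulosa-like cells had a UMI, and 3.22%, 2.07% and 6.53% after thinning, against 0.771%, 1.18% and 2.05% of thinned endothelial-like cells. The ratio of endings 3 and 1 in granulosa-like cells, 1.87, was 1.19 without cluster 1 of ending 3 and 0.877 without clusters 1, 9 and 14. In myeloid-like cells 0 UMIs were seen in ending 1, which allows a level of up to 0.0445 (3 counts; the upper end of the interval is 0.0547), and 1 in each of the others. The highest cluster level was 0.359 (0.326 to 0.396), again in cluster 1 of ending 3, 5.96 times that of cluster 2 of ending 1. In cluster 15 of ending 3, of the preantral type, it was 0.305 times (0.110 to 0.726) cluster 13 of ending 1 and 0.264 times cluster 14 of ending 2, from 8 UMIs.

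*Baz1a*, the SNF2H partner in ACF and CHRAC, differed between endings 3 and 1 by about as much as *Smarca1*. It was at 0.216 (0.198 to 0.235) in granulosa-like cells of ending 1, 0.417 (0.388 to 0.447) in ending 2 and 0.924 (0.891 to 0.958) in ending 3, from 743, 982 and 3876 UMIs. Unlike *Smarca1* it was higher in ending 2 than in ending 1, by 1.93 times. The ratio of ending 3 to ending 1 was 4.28 (3.91 to 4.70) in granulosa-like cells and 2.63 in theca-like cells, where the levels were 0.243, 0.265 and 0.638. Stroma-like cells were at 0.116, 0.264 and 0.193, with a ratio of 2.27 (1.91 to 2.72) between endings 2 and 1 and 1.66 between endings 3 and 1. Its 2 highest clusters were the mitotic cluster 9 of ending 3 at 1.48 and cluster 1 of ending 3 at 1.47, the latter 10.2 times (8.20 to 12.7) cluster 2 of ending 1. In these clusters of the preantral type it was lower in ending 3, with cluster 15 at 0.456 times (0.303 to 0.675) cluster 13 of ending 1 and 0.424 times cluster 14 of ending 2, and cluster 6 at 0.678 times cluster 13 of ending 1. Cluster 6, at 0.364, was not lower than cluster 15 of ending 1, at 0.277, with which it shares leading genes. After thinning, 6.14%, 11.2% and 22.5% of granulosa-like cells had a *Baz1a* UMI, against 5.40%, 6.24% and 11.7% of endothelial-like cells. The shares were 4.09%, 7.23% and 5.14% in stroma-like cells and 3.79%, 4.87% and 5.87% in smooth muscle-like cells. In ending 1 the granulosa-like share was thus near that of endothelial-like cells and above that of stroma-like cells. Without cluster 1 of ending 3 the ratio of endings 3 and 1 was 2.63.

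*Baz1b*, the partner of SNF2H in WICH, was at 0.667, 0.466 and 0.869 in granulosa-like cells, with a ratio of 1.30 between endings 3 and 1 and 1.86 between endings 3 and 2. Endothelial-like cells had 0.869, 0.712 and 0.833, and stroma-like cells 0.775, 0.671 and 0.832. Theca-like cells had the lowest point value in each ending, at 0.487, 0.282 and 0.591. Within granulosa-like cells its highest cluster level was 1.25, in the mitotic cluster 9 of ending 3.

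Of the 6 members, 5 reached the minimum level between endings 3 and 1, and 2 of them, *Smarca1* and *Baz1a*, were higher by 1.5-fold or more in granulosa-like cells of ending 3, where 14.6% of all genes were higher and 16.5% lower. None was lower. *Smarca1* was selected on this value and *Baz1a* reached the minimum through ending 3 alone, so nothing is read from the count. Between endings 3 and 2, *Smarca1*, *Bptf*, *Baz1a* and *Baz1b* were higher, 4 of 5, where 25.6% of all genes were higher and 13.9% lower. *Baz1a* and *Baz1b* again reached the minimum through ending 3 alone. *Bptf* was 1.41 times as high in ending 3 as in ending 2 without cluster 1 of ending 3, below 1.5. Counted on the levels alone, with no minimum and nothing added, 10 of the 18 ratios of 6 genes between endings were past 1.5-fold. The share over the ratios of all genes with a UMI in both endings was 53.1%. That share includes genes of few UMIs, whose ratios have more counting error than those of the members. Of the 18 ratios of granulosa-like to other cells by the same rule 8 reached 1.5, against 22.1% over all genes. They include the *Smarca1* ratio of ending 3, which follows from the selection, and those of *Cecr2*, the scarcest gene, in every ending. Nothing is read from either of these counts.

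Set against all other cells of the same ending, 0 of the 4 members that reached the minimum level were higher by 1.5-fold or more in granulosa-like cells of ending 1, where 15.8% of genes were, and 0 of 4 in ending 2, where 12.9% were. In ending 3, 4 of 5 were higher (*Smarca1*, *Smarca5*, *Bptf* and *Baz1a*) against 18.4% of genes, with *Baz1a* past the minimum only through the granulosa-like cells. *Smarca1* was selected on its granulosa-like level in this ending, so nothing is read from the count. With the endings clustered together the ratio was 0.787 for *Smarca1* and 0.995 for *Baz1a*, and under the gate on single cells no member reached 1.5 times the level of other cells in any ending. *Smarca1* was 0.695 times as high in granulosa-like as in other cells in ending 1, 0.720 times in ending 2 and 3.81 times in ending 3. The other cells include all unnamed ones. In ending 2 these hold cluster 2 of 1180 cells, with *Inha* at 98.4 and *Smarca1* at 1.52. The count and the ratio of ending 2 thus set granulosa-like cells partly against a cluster with high levels of GC markers. Between cluster 1 of ending 3 and cluster 2 of ending 1, 3 of 5 members were higher, against 21.8% of genes, and against cluster 2 of ending 2, 4 of 5, against 38.9%. *Baz1a* in both comparisons, and *Baz1b* in the second, reached the minimum only through cluster 1 of ending 3. That cluster had the highest *Smarca1* level of all clusters and most of the granulosa-like *Smarca1* UMIs behind the selection of the gene. Neither count is therefore read as a result.

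The wider set of ISWI subunits was read from a fixed list of 9 genes. Of the 6 that reached the minimum level between endings 3 and 1, 1 was higher, *Rbbp7*, a histone chaperone subunit of NURF, and none was lower, where 14.6% of all genes were higher and 16.5% lower. *Rbbp7* was at 3.04, 3.18 and 5.98 in granulosa-like cells of endings 1, 2 and 3, and at 8.87 in cluster 1 of ending 3, 3.43 times cluster 2 of ending 1. Its sister gene *Rbbp4* was at 2.98, 2.38 and 2.47, with no ratio past 1.5-fold. The remaining NURF genes were low, with *Hmgxb4* at 0.281, 0.170 and 0.276 and *Bap18* (0610010K14Rik in the table) at 0.355, 0.320 and 0.495. *Chrac1* and *Pole3*, the histone-fold subunits of CHRAC, were lowest in ending 2. *Chrac1* was at 1.10, 0.470 and 1.12 and *Pole3* at 0.401, 0.328 and 0.545, and both were past 1.5-fold between endings 3 and 2. Among SNF2H partners of other complexes, *Rsf1* was at 1.09, 0.599 and 0.838, *Baz2a* at 0.349, 0.289 and 0.394 and *Baz2b* at 0.935, 0.881 and 0.655. The median fold of the list was 0.925 between endings 3 and 1. Between endings 3 and 2, 3 of 6 were higher (*Rbbp7*, *Chrac1* and *Pole3*, the last pair past the minimum through ending 3 alone), with a median of 1.43, against 25.6% of all genes and a median of 1.15.

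**Figure D5:**
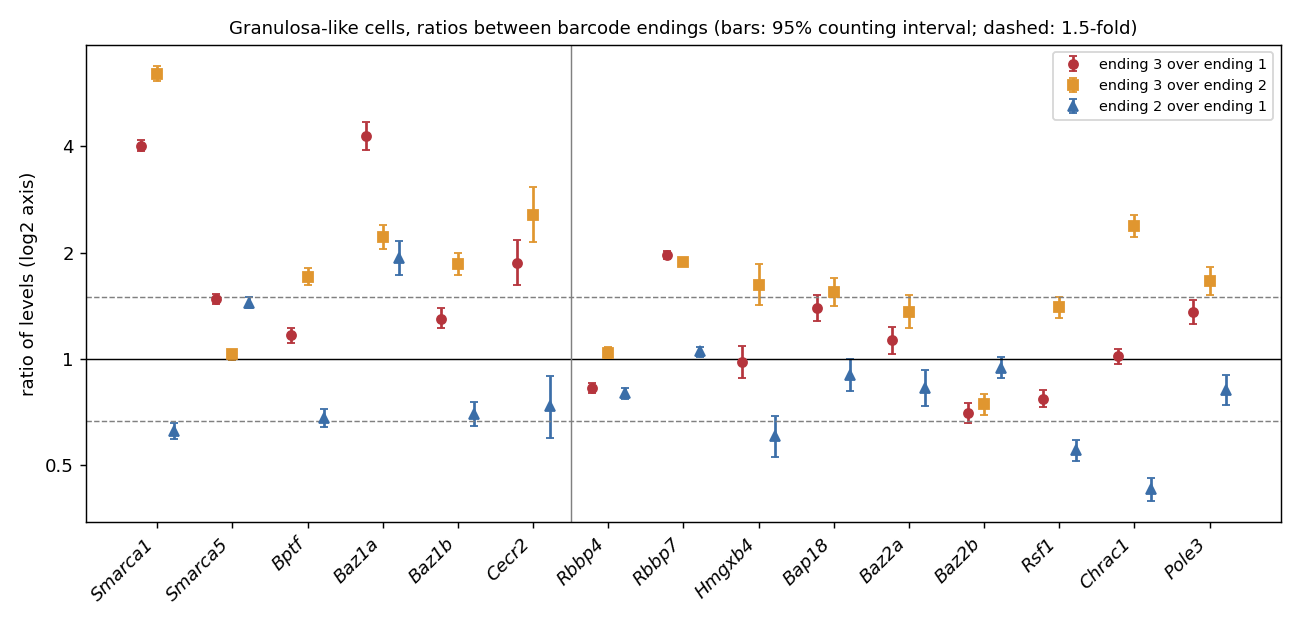
Ratio of levels between barcode endings in granulosa-like cells, on a log2 axis with 95% counting intervals, for the 6 genes (left of the line) and 9 further ISWI subunit genes. *Smarca1* (4.02), *Baz1a* (4.28), *Rbbp7* (1.97) and *Cecr2* (1.87) are past the dashed 1.5-fold line between endings 3 and 1, *Cecr2* no longer without cluster 1 of ending 3 (1.19).

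*Star* and *Fgl2* were followed because of their reported tie to SNF2L. *Star* in granulosa-like cells was at 0.0506, 1.90 and 7.40 in endings 1, 2 and 3, and was thus higher in ending 2 than in ending 1, while *Smarca1* was lower in ending 2. The *Star* level of ending 1 was near that of smooth muscle-like cells (0.0542) and endothelial-like cells (0.0751), and these classes were higher in ending 2 too, at 0.408 and 0.469. In cluster 2 of ending 2, left unnamed and so not part of the 1.90, *Star* was at 12.4 with *Smarca1* at 1.52. In cluster 1 of ending 3, which is part of the 7.40, *Star* was at 16.4 with *Smarca1* at 11.5. How far this naming sets the difference between endings 2 and 3 was not tested. *Fgl2* was at 0.0337, 0.0723 and 0.290 in granulosa-like cells, and at 0.530 in cluster 1 of ending 3. In theca-like cells *Star* was at 0.728, 27.3 and 28.9 and *Fgl2* at 0.0807, 1.24 and 5.76, while *Smarca1* was at 4.55, 3.22 and 8.25. Both genes were thus higher in theca-like cells of ending 2 than of ending 1, while *Smarca1* was lower in ending 2.

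Over the 21 points of 7 classes and 3 endings, the genes whose log2 level followed *Smarca1* most closely included 1500009L16Rik (Pearson r = 0.89), *Pfkfb4* (0.88), a regulator of glycolysis, and the glutathione transferases *Gstm1* and *Gstm2* (0.86 each), among 6379 genes compared. The points of an ending may share a library and its depth, so these values are a description. *Gstm1* was at 1.80, 1.38 and 5.97 in granulosa-like cells of endings 1, 2 and 3, at 9.22, 7.0 and 6.47 in theca-like cells and at 6.13, 4.60 and 2.55 in stroma-like cells, so ending 3 was highest in granulosa-like and lowest in stroma-like cells, as for *Smarca1*, but was lowest in theca-like cells. Of the members, *Cecr2* had an r of 0.63 with *Smarca1*, *Smarca5* 0.53, *Baz1a* 0.12, *Bptf* -0.10 and *Baz1b* -0.32. *Star* had an r of 0.57 with *Smarca1* and *Cyp11a1*, the gene of the first enzyme of steroid synthesis, 0.65. For *Smarca5* the closest genes were *Hnrnpu* (0.83), *Lama1* (0.82) and *Prkcsh* (0.81).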

How the data were processed

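Values of 1 table of mouse ovary cells, deposited by the authors, are on a natural log scale (UMIs scaled to 10000 a cell, plus 1), and 100% of values above 0 came back as whole UMIs (largest deviation 1.32e-11). The submitters' processing notes name Cell Ranger, Seurat and mm10. Their versions, filters and annotation are not given in the sources used here. The lowest cell has 500 UMIs. The labels' 3 libraries could not be matched to barcode endings, so the table was treated as pooled.

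Each ending was clustered on 2000 variable genes, without the members, the listed ISWI and ATPase genes, *Star*, *Fgl2* and mitochondrial genes (30 principal components, 15 neighbours, Louvain resolution 1, 70 clusters in all). A marker was present when found in 10% of cells, at 0.5 UMIs per 10000 and 3 times the lower quartile over clusters. A class needed 3 markers present, and 40% of its list where none was among the 10 leading genes. Clusters with more leading markers of another class, or shallow ones with none, stayed unnamed. These thresholds were adjusted 3 times after clusters and their markers had been viewed. The members and lists were chosen with earlier results of these data known.

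Intervals are Poisson (gamma) intervals on the effective number of UMIs, which replaced the planned ones on summed UMIs because those were too narrow for a mean over cells. Shares have exact binomial (Clopper-Pearson) ones. The computation was checked on simulated data. PCR and library error are not covered. Scrublet marked 0.135% of cells, so it did not work as a caller, no doublets were removed, and an alternative left out the 8% of highest score. The genes named are the members, the 9 partners, *Star*, *Fgl2*, ATPase genes past 1.5-fold, the 5 and 3 most alike genes (1 of them is not reported here) and leading genes of clusters, with marker genes of cluster 1 of ending 3 added after its values were seen. Alternatives changed the averaging, cell filters and class definition, and 4 were added after seeing the data. Clustering used scanpy 1.11.5 with python-igraph 0.11.9 and scikit-learn 1.9.0, and values were computed in Python 3.11.15 with scipy 1.17.1 and numpy 2.4.6 and drawn with matplotlib 3.10.9.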

Additional observations from a re-analysis of the deposited data

Results flagged for a closer look

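The *Smarca1* level went in opposite directions between barcode endings 1 and 3 in 2 classes, with 4.02 times the level in granulosa-like cells of ending 3 and 0.358 times in stroma-like cells. The former is the value *Smarca1* was selected on, and was 1.92 without cluster 1 of ending 3, 1.98 with the endings clustered together and 1.05 without clusters 1, 9 and 14 of ending 3. The latter leaves out a cluster of ending 3 that stayed unnamed while its counterparts in endings 1 and 2 were stroma-like, and was 0.416 with it. With the endings clustered together, a cluster of 727 cells led by *Ly6d*, *Akr1b7* and *Ren1* was named stroma-like. These genes are among the leading genes of the theca-like cluster of ending 3. The stroma-like ratio under that alternative is not given, so the opposite directions hold for the main classes only. Each ending gives 1 value a class, and the difference between classes was not tested.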

How the results depend on the processing

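The *Smarca1* level in granulosa-like cells of ending 3 was above that of ending 1 under 15 of 15 alternatives, with ratios of 1.05 to 4.36. Its ratio of the highest to the lowest ending, 6.43, was 3.18 as a mean of the log values, 5.96 without the 50 most abundant genes in the totals, 4.75 under a gate on the markers of single cells, 5.58 and 5.11 at clustering resolutions of 0.5 and 2, and 3.0 with the endings clustered together. Among alternatives added after seeing the data it was 5.58 with cluster 2 of ending 2 counted as granulosa-like, 3.07 without cluster 1 of ending 3, 1.68 without clusters 1, 9 and 14 of ending 3, and 6.98 without cluster 7 of ending 3, which has *Pik3ip1* among its leading genes. Of 18 ratios between endings, 10 were past 1.5-fold (53.1% over all genes), against 6 with the endings clustered together and 5 without clusters 1, 9 and 14. Of 18 ratios of granulosa-like to other cells, 8 reached 1.5 (22.1% over all genes), against 0 under the gate, 4 at resolution 2, 3 clustered together and 4 without those clusters. The 8 include the *Smarca1* ratio of ending 3, which follows from the selection. The shares over all genes are for the main setting and are not given under the alternatives, so nothing is read from the lower counts there. Granulosa-like cells were the highest class in 10 of 18 cases, and in 1 under the gate. The share over all genes is not given for this count, so nothing is read from it. Of the 5 genes most like *Smarca1*, 3 remained with a pseudocount of 1.

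Among ratios past 1.5-fold, 6 values turned direction. *Smarca1* in granulosa-like over other cells of ending 3 was 0.787 clustered together and 0.996 without clusters 1, 9 and 14. Without these clusters *Baz1a* between endings 3 and 2 was 0.802 and *Cecr2* between endings 3 and 1 was 0.877. *Baz1a* over other cells of ending 3 was 0.995 clustered together, and *Cecr2* over other cells of ending 1 was 0.962 under the gate. Of the other values for single genes, 377 stayed close to the value reported and 188 moved. Some ratios nearer to 1 crossed it, such as *Bptf* between endings 3 and 1 (1.17), which was 0.957 without cluster 1 of ending 3, 0.897 without clusters 1, 9 and 14 and 0.945 clustered together. These alternatives change which cells are counted, and the cause of each change was not tested. Leaving out each granulosa-like cluster in turn gave *Smarca1* ratios of endings 3 and 1 from 1.92 (without cluster 1 of ending 3) to 5.58 (without cluster 2 of ending 1). No paired analysis was possible because the table is pooled and each time point has 1 library.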

Other observations

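Of 16 ATPase genes of other remodeler families, 12 reached the minimum level in granulosa-like cells between endings 3 and 1, and 1 was higher and 2 lower by 1.5-fold or more, with a median fold of 0.840, where 14.6% of all genes were higher and 16.5% lower, with a median of 0.999. *Chd4*, the ATPase of NuRD, was at 1.5, 2.04 and 2.38 in endings 1, 2 and 3. *Smarca2* and *Smarca4* encode the alternative ATPases of BAF complexes. *Smarca2* was at 2.82, 2.12 and 1.47, and *Smarca4* at 0.596, 0.421 and 0.913. Both were lower in ending 2 than in ending 1, and the *Smarca4* fold of 1.45 between endings 3 and 1 stayed short of 1.5. In cluster 1 of ending 3 *Smarca2* was 0.932 times cluster 2 of ending 1. *Chd2* was lower in ending 3, at 0.535 against 1.16 and 1.24. *Chd1* peaked in ending 2, at 1.03 against 0.527 and 0.411, and *Chd8* was lowest there, at 0.264 against 0.535 and 0.548.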
